A study of Mus musculus with 8 samples.

Results

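Kitl, the gene of stem cell factor, and Kit, the gene of its receptor, are 2 of the 52636 genes in a count matrix of mesenchymal stem cells from mouse bone marrow. Their rows were taken by gene symbol. The pair was chosen from earlier results of the same comparison, that is from the counts described here, so the levels of Kitl and Kit in the groups are given as a description without a test. The LTβR-Ig group holds 4 libraries from C57BL/6 mice given intravenous injections of 150 µg of LTβR-Ig once a week for 3 weeks. LTβR-Ig is a soluble decoy of the lymphotoxin β receptor that takes up its ligands. The control group holds 4 libraries from C57BL/6 mice given the same dose of HEL-Ig, an IgG1 against hen egg lysozyme, on the same schedule. In both groups, live cells that carried the leptin receptor (LEPR+) and lacked CD45, Ter119, CD31 and CD144 were sorted, then re-sorted, and polyA RNA was sequenced in bulk. The labels do not say whether a library came from 1 mouse or from a pool, so each error or p-value rests on the spread between libraries, which may be partly technical.

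Kitl encodes stem cell factor, a cytokine that holds blood stem and progenitor cells, and LEPR+ perivascular cells are a main source of it in adult marrow. It is made as a membrane protein that can be cut to a soluble form. KIT, its receptor, is a class III receptor tyrosine kinase found on blood stem cells, myeloid and early erythroid progenitors, mast cells and pigment cells. Binding of stem cell factor pairs KIT molecules and starts signalling through RAS and MAP kinases, PI3 kinase and STAT5.

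Both genes are spliced to alternative forms, and the counts, summed over each gene, do not separate them. The exon and exon end that differ are shown because they set what a count of Kitl or Kit can mean. In GENCODE M21 on GRCm38, the Kitl transcript Kitl-202 has 273 codons and Kitl-201 has 245, and they differ by coding exon 6, chr10:100080857-100080940 on the plus strand, 84 bases or 28 codons. As background, this exon holds the main cutting site, so the form without it stays mostly on the membrane. The Kit transcripts Kit-201 and Kit-204 have 979 and 975 codons and differ by 12 bases at the end of coding exon 9, chr5:75639147-75639158 on the plus strand. The capitals below mark the optional bases, and the lower case letters are the neighbouring bases of the spliced transcript.
Kitl-202: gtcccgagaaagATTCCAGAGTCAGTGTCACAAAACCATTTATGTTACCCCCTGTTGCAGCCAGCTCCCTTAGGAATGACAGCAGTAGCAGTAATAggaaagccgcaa
Kit-201: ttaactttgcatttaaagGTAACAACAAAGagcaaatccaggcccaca

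Total counts lay between 52378101 and 64403177 per library, and trimmed mean (TMM) scaling factors between 0.982 and 1.02. CPM below is a gene's count per megaread of the scaled library. The gene of the sorting marker, Lepr, was at 3907 ± 554 CPM in LTβR-Ig libraries and 4305 ± 45.9 CPM in control libraries (SD, n = 4 each). Genes of the excluded lineages were not at 0, with Ptprc, the CD45 gene, at 45.05 ± 8.39 CPM in LTβR-Ig libraries and 47.2 ± 17.4 CPM in control libraries (SD, n = 4 each).

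Kitl was lower in the LTβR-Ig libraries, and Kit was higher. Kitl (ENSMUSG00000019966.18, GRCm38 chromosome 10, 100015630 to 100100416, plus strand) was at 1396, 1202, 1106 and 1123 CPM in LTβR-Ig replicates 1 to 4, against 1814, 1942, 1780 and 1682 CPM in control replicates 1 to 4. All 4 LTβR-Ig libraries lay below all controls, with LTβR-Ig replicate 1 the closest to them. Kitl averaged 1206 ± 133 CPM in LTβR-Ig libraries and 1804 ± 107 CPM in control libraries (SD, n = 4 each). The edgeR fit put its log2 difference at -0.58 (SE 0.10), with a 95% interval of -0.81 to -0.36, or 0.669 of the control level (interval 0.572 to 0.781). In bulk RNA, fewer cells that make a transcript and less of it per cell cannot be told apart.

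Kit (ENSMUSG00000005672.12, GRCm38 chromosome 5, 75574916 to 75656722, plus strand) was at 105, 147, 102 and 129 CPM in LTβR-Ig replicates 1 to 4, against 60.6, 62.1, 39.6 and 51.0 CPM in control replicates 1 to 4. The groups did not overlap, with LTβR-Ig replicate 2 the highest library and control replicate 3 the lowest. Kit averaged 120 ± 21.1 CPM in LTβR-Ig libraries and 53.3 ± 10.4 CPM in control libraries (SD, n = 4 each). Its log2 difference in the fit was 1.18 (SE 0.18), with a 95% interval of 0.76 to 1.59, or 2.26 times the control level (interval 1.70 to 3.01). The raw counts behind these levels were 5776 to 7771 for Kit and 57715 to 86109 for Kitl per LTβR-Ig library, and 2219 to 4065 for Kit and 98580 to 127217 for Kitl per control library.

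**Figure D1:**
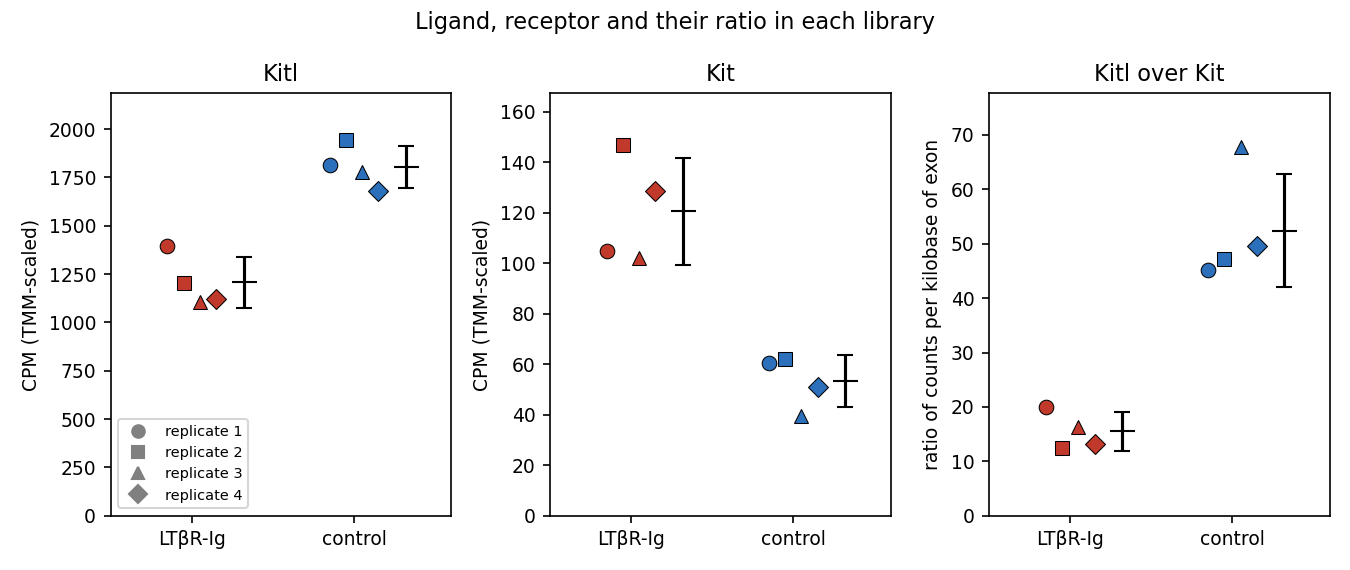
CPM of Kitl (left) and Kit (middle) and the ratio of their counts per kilobase of exon (right) in each library, with LTβR-Ig in red and control in blue. Marker shapes give the replicate number, and black bars the mean and SD of 4 libraries. Kitl spans 1106 to 1396 CPM in LTβR-Ig and 1682 to 1942 CPM in control libraries, and Kit 102 to 147 CPM in LTβR-Ig and 39.6 to 62.1 CPM in control libraries.

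Ligand and receptor were next set against each other within each library, which removes library scaling. Per kilobase of exon, Kitl exceeded Kit 20.1, 12.4, 16.4 and 13.2 times in LTβR-Ig replicates 1 to 4, against 45.1, 47.2, 67.8 and 49.7 times in control replicates 1 to 4. The ligand was in excess in all 8 libraries, and the excess was smaller in each LTβR-Ig library than in any control. The ratio averaged 15.5 ± 3.51 in LTβR-Ig libraries and 52.4 ± 10.4 in control libraries (SD, n = 4 each). On the log2 scale the ratio averaged 3.93 ± 0.32 in LTβR-Ig and 5.69 ± 0.27 in control libraries (SD, n = 4 each), a difference of -1.77. The exon lengths behind these ratios, 5911 bp for Kitl and 8911 bp for Kit, unite all annotated transcripts. With the longest coding transcript of each gene instead, 5648 bp and 5241 bp, the ratios were 9.53 ± 2.16 in LTβR-Ig and 32.3 ± 6.40 in control libraries (SD, n = 4 each). The choice of length rescales every library alike, so the log2 difference could not change. The control library with the least Kit, replicate 3, had a Kitl level inside the range of its group, and the LTβR-Ig library with the most Kitl, replicate 1, had less Kit than replicates 2 and 4.

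Neither member passed an adjusted p of 0.05 in edgeR's quasi-likelihood test, 0 of 2, where 0.0374% of 16045 tested genes passed. Both had an unadjusted p under 0.05 by edgeR, as did 6.32% of tested genes, and both had groups that did not overlap, as did 4.89%, with 2.53% lower like Kitl and 2.36% higher like Kit. DESeq2 called both, where it called 1.94% of its genes, and limma-voom called 0. Nothing is read from these counts, because the members were chosen with this comparison known. Among all tested genes, 1767 had a log2 fold change below that of Kitl and 621 one above that of Kit.

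By level per length, Kitl was one of the higher niche factors of these cells. It was at 204.1 ± 22.5 CPM per kilobase of exon in LTβR-Ig libraries and 305 ± 18.2 in control libraries (SD, n = 4 each). Its rank among the 16045 tested genes was between 219 and 288 in LTβR-Ig libraries and between 138 and 159 in control libraries. Of 14 niche factors ordered by this level, Kitl took place 5, after Cxcl12, the chemokine that retains blood stem cells, at 2332 ± 270 CPM per kilobase in LTβR-Ig and 2003 ± 275 in control libraries (SD, n = 4 each), the matrix cytokine Spp1, Gas6, a ligand of TAM receptors, and the adhesion molecule Vcam1. Vcam1 ranged from 449 to 618 CPM per kilobase in LTβR-Ig and from 434 to 570 in control libraries, above Kitl in every library. Csf1, the next below, ranged from 88.4 to 104 CPM per kilobase in LTβR-Ig and from 73.9 to 103 in control libraries, so Kitl stood clear of its neighbours in both groups. Csf1, Bmp4 and Igf1 overlapped with each other in both groups, as did Gas6 and Vcam1. Spp1 overlapped with Gas6 in control libraries and lay just above it in LTβR-Ig libraries.

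Kit took a middle place among related receptors, the class III family and Kdr, a VEGF receptor of another class. Per kilobase it was at 13.5 ± 2.37 CPM in LTβR-Ig and 5.98 ± 1.17 CPM in control libraries (SD, n = 4 each). The receptor genes of stromal cells lay above it, with Pdgfrb at 147 ± 17.8 CPM per kilobase in LTβR-Ig and 155 ± 19.4 in control libraries, and Pdgfra at 34.7 ± 4.12 in LTβR-Ig and 42.6 ± 2.35 in control libraries (SD, n = 4 each). Csf1r, the receptor of macrophages, was at 5.99 ± 4.01 CPM per kilobase in LTβR-Ig and 7.28 ± 4.23 in control libraries (SD, n = 4 each). Kit and Csf1r overlapped in both groups, and the mean of Kit was the higher in LTβR-Ig libraries and the lower in control libraries. Flt3, the receptor of early lymphoid and dendritic progenitors, was near 0, from 0 to 0.454 CPM per kilobase in LTβR-Ig and from 0.102 to 0.455 in control libraries. By rank per length, Kit stood between 2896 and 3845 in LTβR-Ig libraries and between 5372 and 6980 in control libraries.

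**Figure D2:**
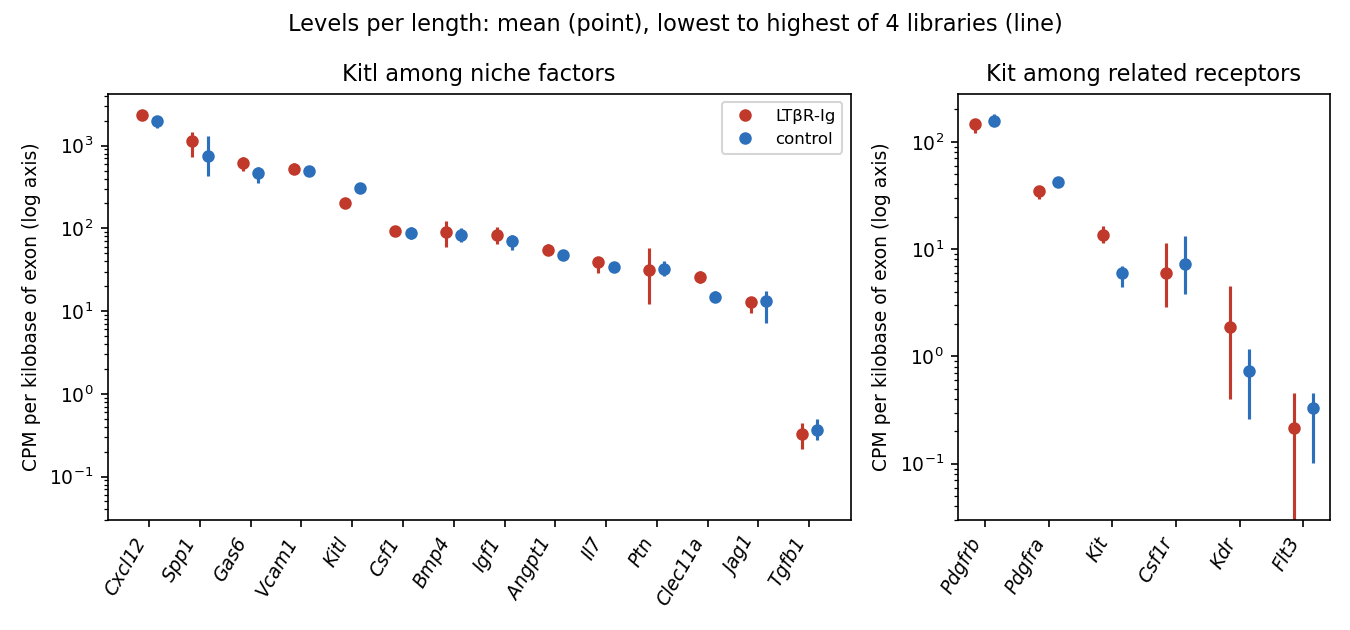
CPM per kilobase of exon on a log axis for Kitl among 14 niche factors (left) and Kit among 6 related receptors (right), in order of mean level. Points are means and lines run from the lowest to the highest of 4 libraries, with LTβR-Ig in red and control in blue. One Flt3 value of 0 lies below the axis. Kitl sits between Vcam1 and Csf1 in both groups. Kit sits below Pdgfra in both, with its mean above that of Csf1r in LTβR-Ig and below it in control libraries.

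Markers of other KIT positive cells were read beside Kit. Mast cell markers were scarce. Of 9 genes, the protease genes Tpsb2, Tpsab1, Mcpt4 and Cma1 and the receptor gene Mrgprb1 were at 0 in all 8 libraries. The summed mast cell list was at 15.3 to 25.4 CPM in LTβR-Ig and 15.2 to 37.9 CPM in control libraries. Of 6 pigment cell markers, Dct, Tyr and Tyrp1 were at 0 in all libraries, and the sum was at 0.545 to 4.85 CPM in LTβR-Ig and 3.17 to 4.73 CPM in control libraries. Summed progenitor markers, 13 genes led by the granule genes Mpo and Elane, were at 894 to 2188 CPM in LTβR-Ig and 844 to 2158 CPM in control libraries. Summed erythroid markers, 10 genes that include haemoglobins, were at 12994 to 26717 CPM in LTβR-Ig and 12961 to 35667 CPM in control libraries. Summed leukocyte markers, 5 genes, were at 73.2 to 108 CPM in LTβR-Ig and 49.4 to 122 CPM in control libraries. None of the progenitor, erythroid and leukocyte genes was at 0 throughout. None of these 5 sums separated the groups. Their means in LTβR-Ig libraries were 0.770, 0.502, 0.866, 0.904 and 0.948 of control for mast cell, pigment cell, progenitor, erythroid and leukocyte markers.

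Kit per read of blood cell markers was higher in LTβR-Ig libraries. Divided by Ptprc counts, Kit had a log2 difference of 1.16, and divided by summed leukocyte markers 1.19. Divided by summed progenitor, erythroid or mast cell markers it had 1.39, 1.26 and 1.49. Few genes made up most of these sums. Hdc averaged 16.7 of 19.7 CPM of the mast cell sum in LTβR-Ig libraries and 18.3 of 25.6 CPM in control libraries. Hbb-bs averaged 12176 of 19727 CPM of the erythroid sum in LTβR-Ig and 13488 of 21827 CPM in control libraries. In LTβR-Ig libraries, Elane and Mpo averaged 569 and 482 of 1346 CPM of the progenitor sum, and in control libraries 650 and 577 of 1555 CPM. GATA1, an erythroid and mast cell transcription factor, had its gene Gata1 at 138 ± 21.1 CPM in LTβR-Ig and 139 ± 12.1 CPM in control libraries (SD, n = 4 each). Gata2, a factor of stem and mast cells, was at 0.567 to 1.87 CPM in LTβR-Ig libraries and 0.512 to 8.16 CPM in control libraries. The part of blood cells in the difference of Kit was not tested.

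The megakaryocyte and endothelial lists were higher on average in LTβR-Ig libraries, as Kit was. Summed megakaryocyte markers, 5 genes, none of them at 0 throughout, were at 808, 1845, 3316 and 1290 CPM in LTβR-Ig replicates 1 to 4, against 541, 574, 1285 and 2335 CPM in control replicates 1 to 4. Summed endothelial markers, 7 genes, none of them at 0 throughout, were at 47.4, 88.3, 250 and 116 CPM in LTβR-Ig replicates 1 to 4, against 71.0, 66.8, 69.8 and 117 CPM in control replicates 1 to 4. The means stood at 1.53 and 1.54 times control, with overlapping groups. Pearson r of log2 CPM with Kit over the 8 libraries was 0.23 for each sum. The order of the libraries differed from that of Kit: LTβR-Ig replicate 3, highest in both lists, had the lowest Kit of its group, and control replicate 4, the highest control in both lists, had less Kit than control replicates 1 and 2. Divided by summed megakaryocyte markers, Kit had a log2 difference of 0.49, and divided by summed endothelial markers 0.77. The part of these cells in the difference of Kit was not tested.

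**Figure D3:**
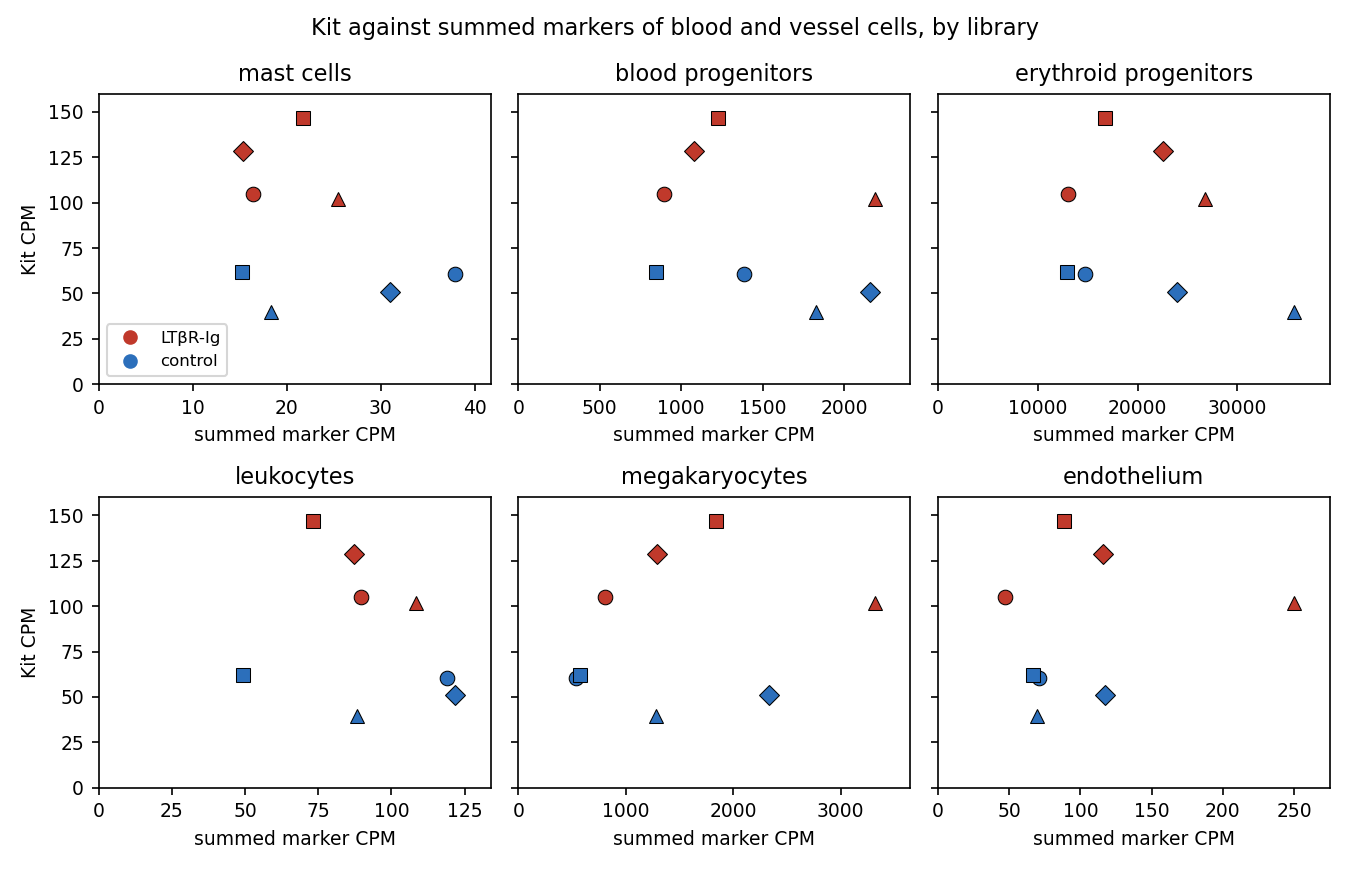
Kit CPM (vertical axes) against summed CPM of 6 marker lists (horizontal axes) in each library, with LTβR-Ig in red and control in blue and marker shapes for replicate numbers as in the plot of the members. All 4 LTβR-Ig libraries, at 102 to 147 CPM of Kit, lie above all controls, at 39.6 to 62.1 CPM, while the groups overlap along each horizontal axis.

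For Kitl, the markers of the sorted cells themselves were compared. Summed markers of LEPR+ stroma, 9 genes, none of them at 0 throughout, were at 30006 to 38742 CPM in LTβR-Ig and 27110 to 34192 CPM in control libraries. These groups overlapped, and the mean was 1.09 times control in LTβR-Ig libraries. Cxcl12, with a log2 fold change of 0.22, was the largest term of that sum in all 8 libraries. By gene the list median was -0.08, and 5 of the 9, Lepr, Pdgfra, Pdgfrb, Ebf3 and Foxc1, had log2 fold changes below 0, from -0.29 to -0.08. The unadjusted edgeR p was under 0.05 for 0 higher genes and 1 lower gene, Pdgfra, against 3.39% and 2.93% of all tested genes. Divided by Lepr counts, Kitl had a log2 difference of -0.43. Summed osteoblast markers, 6 genes, none of them at 0 throughout, were at 11478 to 18745 CPM in LTβR-Ig and 10989 to 23133 CPM in control libraries. Ibsp, with a log2 fold change of -0.07, was the largest term of that sum in every library except LTβR-Ig replicate 3, where Col1a1 was, while the list median was 0.68. Of the osteoblast genes, 0 passed the adjusted threshold in edgeR or limma-voom and 1 in DESeq2, where 1.94% of all genes did. The unadjusted edgeR p was under 0.05 for 2 higher genes, against 3.39% of all tested genes. These were Alpl, the phosphatase of mineral-forming cells, at 459 to 662 CPM in LTβR-Ig and 200.9 to 382 CPM in control libraries, and the factor Sp7, at 26.1 to 50.3 CPM in LTβR-Ig and 14.4 to 28.5 CPM in control libraries. Endothelial cells also make Kitl, and their summed markers are given above. The part of cell composition in the difference of Kitl was not tested.

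Other genes of the pathway were taken from lists of known members and tested in the same fit over 16045 genes, whose median log2 fold change was -0.0021. The lists were chosen with earlier results of these data known. Their counts of calls and p-values, here and in the list paragraphs that follow, therefore only describe these libraries. Of 12 genes, the other class III receptors, ligands of the family and the VEGF receptor gene Kdr, 0 passed the adjusted threshold in edgeR, in DESeq2 or in limma-voom. By the unadjusted edgeR p, 0 were higher and 1 lower below 0.05, against 3.39% and 2.93% of all tested genes, and the list median was -0.13. The lower gene was Pdgfra, at 367, 344, 293 and 389 CPM in LTβR-Ig replicates 1 to 4, against 424, 461, 415 and 407 CPM in control replicates 1 to 4 (log2 fold change -0.29, SE 0.11, edgeR adjusted p = 0.649). Kdr, a receptor of endothelial cells, had 1.35 (SE 0.86) and Pdgfc, a ligand of PDGF receptors, 0.69 (SE 0.62), both with overlapping groups. The helical cytokines related to stem cell factor had log2 fold changes of 0.07 for Csf1 (95% interval -0.23 to 0.37), -0.19 for Il34 (-0.70 to 0.32) and 0.31 for Flt3l (-0.40 to 1.03), and whether they differ from Kitl was not tested.

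Genes that carry or dampen the signal below KIT were tested next. Of 32, 0 passed the adjusted threshold in edgeR, in DESeq2 or in limma-voom, while the unadjusted p was under 0.05 for 4 higher genes and 1 lower gene, and the list median was 0.14. Over all tested genes those shares were 3.39% higher and 2.93% lower. Groups did not overlap for 2 higher genes and 1 lower gene, against 2.36% and 2.53% of all tested genes. Sh2b3, which encodes the adaptor LNK that dampens KIT signalling, was at 18.5, 38.2, 44.1 and 23.3 CPM in LTβR-Ig replicates 1 to 4, against 12.4, 15.04, 21.4 and 16.5 CPM in control replicates 1 to 4 (log2 fold change 0.92, SE 0.31, edgeR adjusted p = 0.596). LTβR-Ig replicate 1 lay inside the control range. Hras, a RAS protein gene, was low, at 6.51 to 14.9 CPM in LTβR-Ig and 3.58 to 6.72 CPM in control libraries (log2 fold change 1.01, SE 0.38, edgeR adjusted p = 0.672). The unadjusted lower gene was Cblb, a ubiquitin ligase of activated receptors, at 37.3 to 50.7 CPM in LTβR-Ig and 51.9 to 76.5 CPM in control libraries (log2 fold change -0.44, SE 0.17, edgeR adjusted p = 0.684). The groups of Cblb did not overlap. The kinase genes Akt1 and Mapk3 were the other pair higher at an unadjusted p and did not overlap either, with 0.26 (SE 0.11) and 0.27 (SE 0.11, edgeR adjusted p = 0.76 and 0.698).

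Proteases that can release stem cell factor from the membrane, and their regulators, were compared as a list of 14. Of these, 12 were tested, and the mast cell proteases Cma1 and Mcpt4 were at 0. In edgeR 0 passed the adjusted threshold, in DESeq2 1, Timp2, and in limma-voom 0. The unadjusted edgeR p was under 0.05 for 3 higher genes and 1 lower gene, and the list median was 0.32. Of all genes, 3.39% were higher and 2.93% lower by the same unadjusted p, and DESeq2 called 1.94%. Timp2, an inhibitor of metalloproteinases that also helps to activate one of them, was at 298 to 332 CPM in LTβR-Ig and 216 to 267 CPM in control libraries (log2 fold change 0.38, SE 0.10, edgeR adjusted p = 0.354). Mmp14, a membrane metalloproteinase, was at 144 to 239 CPM in LTβR-Ig and 118 to 128 CPM in control libraries (log2 fold change 0.56, SE 0.17, edgeR adjusted p = 0.478), and Adam9, a membrane protease, had 0.42 (SE 0.15, edgeR adjusted p = 0.657). The lower gene was Mmp9, linked to release of stem cell factor in marrow and made largely by myeloid cells, at 14.9, 26.7, 35.1 and 14.05 CPM in LTβR-Ig replicates 1 to 4, against 58.2, 37.4, 44.9 and 28.7 CPM in control replicates 1 to 4 (log2 fold change -0.90, SE 0.34, edgeR adjusted p = 0.683). LTβR-Ig replicate 3 overlapped with the controls. Adam10 was at 232 to 316 CPM in LTβR-Ig libraries and at 254, 280, 9.51 and 6.48 CPM in control replicates 1 to 4, so 2 control libraries stood far below the other 6, and the log2 fold change was 1.03 (SE 1.03).

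Among the 13 other niche factors, 0 passed the adjusted threshold in edgeR, 1 in DESeq2, Clec11a, and 0 in limma-voom. By the unadjusted edgeR p, 2 higher and 0 lower genes were under 0.05, against 3.39% and 2.93% of all tested genes, and the list median was 0.18. The DESeq2 share over all genes was 1.94%. Clec11a, which encodes osteolectin, was at 74.7, 90.5, 77.1 and 65.5 CPM in LTβR-Ig replicates 1 to 4, against 39.3, 42.7, 41.2 and 52.02 CPM in control replicates 1 to 4 (log2 fold change 0.81, SE 0.14, edgeR adjusted p = 0.146). Gas6 had 0.41 (SE 0.16, edgeR adjusted p = 0.708), and Angpt1, the ligand of the TIE2 receptor, 0.23 (SE 0.12, edgeR adjusted p = 0.91).

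The list of 15 transcription factors of mesenchymal cells was also chosen with earlier results of these data known. Of these, 1 passed the adjusted threshold in edgeR, where 0.0374% of all tested genes did, and it was lower. This was Meox1, a mesodermal homeobox factor, at 4.97 ± 1.03 CPM in LTβR-Ig and 35.2 ± 9.34 CPM in control libraries (SD, n = 4 each, log2 fold change -2.82, edgeR adjusted p = 0.00875). Its groups did not overlap, as for 2.53% of all tested genes in this direction. Its edgeR adjusted p was 0.0532 without LTβR-Ig replicate 1, 0.0604 without LTβR-Ig replicate 2 and 0.0621 without control replicate 3, and 0.0231 to 0.0379 without each of the other libraries. The unadjusted p was under 0.05 for 0 higher and 2 lower genes, Meox1 and Snai2, against 3.39% and 2.93% of all tested genes, and the list median was 0.07. Snai2, a repressor of the SNAIL family, was at 400, 351, 375 and 292 CPM in LTβR-Ig replicates 1 to 4, against 501, 416, 578 and 535 CPM in control replicates 1 to 4 (log2 fold change -0.52, SE 0.13, edgeR adjusted p = 0.374). The groups of Snai2 did not overlap either. DESeq2 called both Meox1 and Snai2, with 1.94% of all its genes called. Runx1 had -0.27 (SE 0.15, edgeR adjusted p = 0.926). For Foxc1 and Ebf3, which keep the niche function of marrow stroma in mice, the log2 fold changes were -0.08 (95% interval -0.73 to 0.57) and -0.11 (-0.43 to 0.21), and for Ebf1, of the same family as Ebf3, 0.09 (-0.19 to 0.37).

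**Figure D4:**
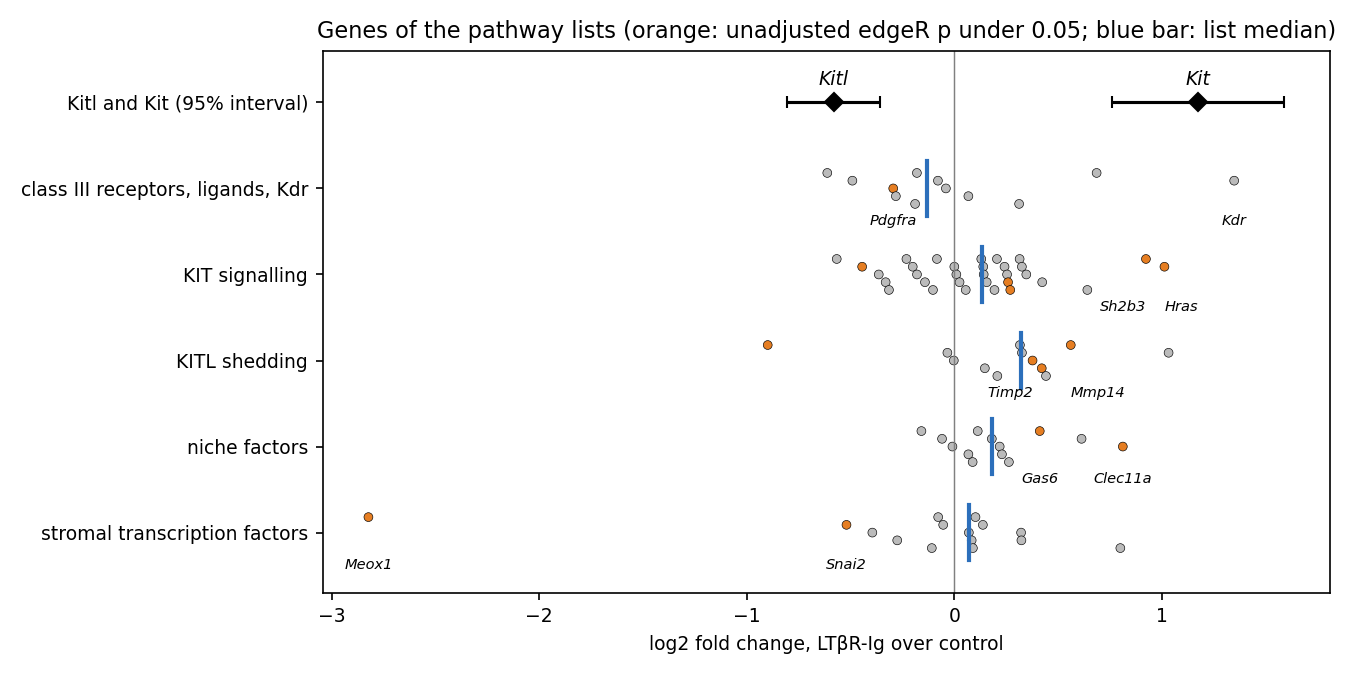
Log2 fold changes of LTβR-Ig over control for Kitl and Kit (diamonds with 95% intervals, top) and for the tested genes of 5 pathway lists (circles, orange at an unadjusted edgeR p under 0.05). Blue bars are list medians, from -0.13 to 0.32, and labels name the pair of genes with the lowest p in each list.

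The genes whose levels followed Kitl and Kit most closely over the 8 libraries were looked up among 9190 genes with a mean of at least 10 CPM, by Pearson r of log2 CPM. Both values of a point come from 1 library, and the 4 libraries of a group share their treatment, so r only describes likeness. For Kitl they were Poglut1, an enzyme that puts glucose on Notch (r = 0.97), Evc2, a protein of the cilium (0.96), Meox1 (0.96), Chst15, a sulfotransferase of chondroitin sulphate (0.95), and Serpina3c, a serpin with close paralogs between which reads may be split (0.95). For Kit they were Rhoa, a small GTPase of the cytoskeleton (0.98), Sspn, a membrane protein of the dystrophin complex (0.97), Pik3r3, a regulatory subunit of PI3 kinase (0.97), Map1lc3a, of the autophagosome (0.97), and Car13, a carbonic anhydrase (0.96). Pik3r3 was at 21.5 ± 5.92 CPM in LTβR-Ig and 8.05 ± 2.13 CPM in control libraries, and Rhoa at 362 ± 33.8 CPM in LTβR-Ig and 254 ± 32.2 CPM in control libraries (SD, n = 4 each).

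With the group means taken out, the closest genes to Kitl were Lyar, of a nucleolar protein, Uchl5, of a deubiquitinase, Pmpcb and Ptcd1, of mitochondrial proteins, and Zfp874b, of a zinc finger protein (r from 0.95 to 0.98). Their log2 fold changes ran from -0.85 for Zfp874b to 0.13 for Uchl5. The closest to Kit were Ddb1, of a DNA damage binding protein, Pdlim2, of a PDZ and LIM domain protein, Usp1, of a deubiquitinase, Dhx33, of an RNA helicase, and Thg1l, of a tRNA guanylyltransferase (r from 0.97 to 0.99). Their log2 fold changes ran from -0.12 for Thg1l to 0.22 for Ddb1. None of these 10 genes was among the 5 closest to either member over all 8 libraries. They are the highest of 9190 r values for each member, so values this high can come from the search alone. Here too r only describes likeness.

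On the chromosome, neither gene overlaps another annotated gene (0 overlaps each), and the strand setting of the counts is not given. Kit lies between Pdgfra, 377 kb upstream, and Kdr, 276 kb downstream, in a cluster of receptor kinase genes. Along this cluster the log2 fold changes were -0.29 (95% interval -0.53 to -0.05) for Pdgfra, 1.18 for Kit and 1.35 (-0.60 to 3.30) for Kdr. Kdr was at 3.92, 3.58, 41.1 and 18.9 CPM in LTβR-Ig replicates 1 to 4, against 10.6, 2.37, 3.00 and 10.6 CPM in control replicates 1 to 4, and its order did not follow that of Kit. Further out, Srd5a3 had 0.16 (-0.31 to 0.63), and Gsx2 was at 0. The nearest protein coding genes to Kitl were Csl (61 counts in all 8 libraries), 256 kb upstream, and the predicted genes Gm4301 and Gm4302, at 0, downstream. Apart from overlaps, noncoding neighbours of Kitl and Kit were not looked up. Dusp6, a phosphatase of MAP kinases 748 kb upstream, had 0.17 (-0.21 to 0.54).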

How the data were processed

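The authors deposited 1 matrix of raw counts per gene, with no normalization, for 8 libraries. Per the submitters' processing notes, HISAT2 and HTSeq were used, with build mm10. Tool versions, strand setting and gene annotation are not given in the sources used. Groups and replicate numbers came from sample titles. Symbols, coordinates and exon lengths came from GENCODE M21 (GRCm38), matched without version suffix (52489 of 52636 IDs).

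Counts were tested with edgeR 4.0.16 in R 4.3.3 (TMM, filterByExpr with minimum count 10 and minimum total 15, robust quasi-likelihood F test, Benjamini-Hochberg over 16045 genes, threshold 0.05, no covariate). The script was tested on simulated data. CPM is TMM-scaled, log2 CPM adds 0.5 counts, and levels between genes are per kilobase of all annotated exons. Alternatives used DESeq2 1.42.0, limma-voom (3.58.1), other scalings and filters, a replicate block and leaving out each library. No replicate pair was a duplicate (chi-square per degree of freedom 140 to 265).

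Members and lists were chosen with earlier results of these data known. The naming rule took the 3 genes of each pathway list with the smallest p, the 5 genes most like each member in each of 2 ways, and the neighbours. Other genes named were chosen after their values were seen.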

Additional observations from a re-analysis of the deposited data

Results flagged for a closer look

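Groups of 4 libraries were searched for a library standing far from the other 3, with Dixon's critical value of 0.829 for the gap over the whole range. Chance marks about 1 group in 20. The search made 54 checks, on the members, their ratio, the genes that the naming rule took from the lists and the marker sums, and found 2 such libraries, neither of them in Kitl, Kit or their ratio. The endothelial marker sum of control replicate 4, 117 CPM, stood above 66.8 to 71.0 CPM in control replicates 1 to 3. Hras in control replicate 4, 6.72 CPM, stood above 3.58 to 3.92 CPM in control replicates 1 to 3.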

How the results depend on the processing

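The log2 fold changes of Kitl and Kit kept their direction under all 17 and 23 alternatives run. Leaving out each library gave -0.65 to -0.53 for Kitl and 1.06 to 1.26 for Kit, and the ratio difference ranged from -1.90 to -1.64. Division by Lepr counts gave Kitl -0.43. Settings chosen after seeing the data gave Kit 1.49 divided by mast cell, 0.49 by megakaryocyte and 0.77 by endothelial markers, and 0.95 without LTβR-Ig replicate 2 and control replicate 3. Counts of calls depended on the test. Over all genes edgeR called 6, DESeq2 338, limma-voom 14, the strict filter (at least 10 counts in 4 libraries and 5 CPM on average) 22 and the replicate block 1, and leaving out each library gave 2 to 9, with 2 without control replicate 3. Of the members, 0 were called in the edgeR test, 2 by DESeq2, 1, Kit, with the strict filter, and 0 without each library. Of the pathway lists, 1 gene was called by edgeR, 4 by DESeq2, 0 with the replicate block (Meox1, edgeR adjusted p = 0.215) and 0 to 1 without each library. Same-numbered libraries did not deviate together (correlations 0.00041 to 0.070, and 2 of 8 libraries correlated best with their own number). As no source says what a pair shares, the replicate block, which gave -0.59 for Kitl, 1.18 for Kit and -1.77 for the ratio, stands only here. Each replicate number holds a library of both groups, so the block could not change the ratio difference. Scaling by DESeq2 size factors or upper quartiles left the sign of all 5 list medians. The cause of the differences between tests was not tested.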
